A study of Schizosaccharomyces pombe with 32 samples.

Results

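The core stress effector genes are 7 genes of fission yeast (Schizosaccharomyces pombe) that act at the end of the stress response rather than in its signalling. They are zym1 (SPAC22H10.13), for a metallothionein that binds metal ions, ctt1 (SPCC757.07C), for catalase, gpd1 (SPBC215.05), for a glycerol-3-phosphate dehydrogenase of glycerol synthesis, tps1 (SPAC328.03), for trehalose-6-phosphate synthase, ntp1 (SPBC660.07), for neutral trehalase, hsp9 (SPAP8A3.04C), for a small stress protein related to budding yeast Hsp12, and hsp16 (SPBC3E7.02C), for a small heat shock protein. They were chosen by gene name, with earlier results of these data known. All 7 of them were found among the 4819 genes with a probe on the array, each with 1 probe, and all 7 were measured on all 32 arrays and passed into the 4811 genes tested.

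Fission yeast answers osmotic, oxidative, heat and starvation stress through the MAP kinase Sty1, which acts on the transcription factor Atf1 and its partner Pcr1. The effector genes then make products that keep cells alive: antioxidant enzymes, metal-binding protein, the compatible solutes glycerol and trehalose, and chaperones. Heat shock genes such as hsp16 are also under the heat shock factor Hsf1, and ntp1 and tps1 lie on the 2 sides of trehalose turnover, its breakdown and its synthesis. When nitrogen runs out, cells of fission yeast stop dividing and turn to mating or to a resting state in which stress tolerance is high.

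Transcripts were measured as polyA RNA on 2-colour arrays that set starved cells (Cy5) against the growing culture of their own strain (Cy3). Cells went from rich medium (YES) to nitrogen-free minimal medium (EMM2-N) at 30 degrees, and samples were taken each hour up to 8 h. L972 is the strain on the 16 arrays made without pheromone. CRL672 is the strain on the other 16, which received the peptide pheromone P-factor at 0.5 ug per ml. Strain and pheromone thus changed together, and their effects cannot be told apart. Since growing cells were in rich medium, each ratio spans the change of medium as well as the loss of nitrogen. The genotype of neither strain beyond its name is given in the sources used here. Each hour of each condition had 2 arrays. By the array numbers in their titles, the arrays form 4 series of 8, a replicate 1 and a replicate 2 for each condition. The submitters state that the experiments were repeated, without saying whether from separate cultures, so p-values measure the spread between these arrays, which may be technical.

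Values are log2 ratios, starved divided by growing, after centring each array on its median. A value of 1 stands for a doubling and 0 for the level of growing cells. Every ± is a standard error from a limma model over all arrays with the array series as a random block, and a gene was called at a adjusted p (Benjamini-Hochberg over 4811 genes) below 0.05. A log base of 2 was assumed, and no dye swap was labelled. The correlation between the 2 arrays of an hour, over all genes, had a range of 0.84 to 0.901 for the condition lacking P-factor and of 0.865 to 0.943 for the other. Ratios to growth were mostly raised in both strains for genes of M cells, which sense P-factor. Of 6 tested M-cell genes, 5 were called higher without P-factor and 6 with it, against 33.7% and 33.9% of all genes. Their median log2 ratio was 3.30 and 4.82. The gene not called without P-factor was mat1-Mi (-0.02). Of 3 tested P-cell genes, 1 was higher and 1 lower without P-factor, where 35.3% of all genes were called lower. With P-factor 2 of the 3 were higher.

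Averaged over 1 to 8 h without P-factor, 6 of the 7 genes were higher than in growth and none was lower, against 33.7% of all tested genes called higher. Their median was 2.79, against 0.00 for all genes. With P-factor 5 of the 7 were higher, against 33.9% of all genes, and hsp16 was lower, against 32.8%. The median was then 2.14, against 0.02 for all genes. Single hours called 6 of the 7 higher at 1, 2 and 3 h without P-factor and 5 at each hour from 4 to 8 h. Of all genes 26.4%, 27.8%, 27.3%, 27.4%, 25.5%, 25.9%, 26% and 27.1% were called higher at 1 to 8 h. The gene that left the called set after 3 h was gpd1, and hsp16 was not called at any hour. Under P-factor 6 were called higher at 1 and 2 h and 5 from 3 h on, again with gpd1 the gene that left, where 26.4%, 25.8%, 24.4%, 28.7%, 26.2%, 28.2%, 26.9% and 29.9% of all genes were called higher. Several of these hourly calls were lost when 1 replicate was left out. Such a fit leaves 1 array at each hour of that condition and takes the spread from the other condition. A lost call therefore need not rest on the replicate left out. At 1 h with P-factor, leaving out replicate 2 ended the calls of ctt1, gpd1, ntp1 and tps1, at -0.15, -0.21, 1.30 and 0.33. Leaving it out also ended those of gpd1 at 2 h (0.90) and tps1 at 8 h (0.93), and leaving out replicate 1 ended those of ntp1 at 4 and 7 h (1.39 and 1.53). Without P-factor, the gpd1 call was lost at 1 h without replicate 1 or 2 (1.26 and 0.66) and at 3 h without replicate 2 (0.25). Those of ntp1 at 4 h (1.52) and tps1 at 5 h (1.05) were lost without replicate 1. Lower calls with P-factor fell on hsp16 alone, at 2 and 3 h, where 31.6% and 29.4% of all genes were called lower. Both were lost without either P-factor replicate, although the replicates read alike (-1.58 and -1.37 at 2 h, -1.78 and -1.31 at 3 h). The spread then came from the arrays without P-factor, on which the replicates of hsp16 lay far apart. The 2 h call was also lost without the 1 h array of replicate 1 (-1.48).

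**Figure D1:**
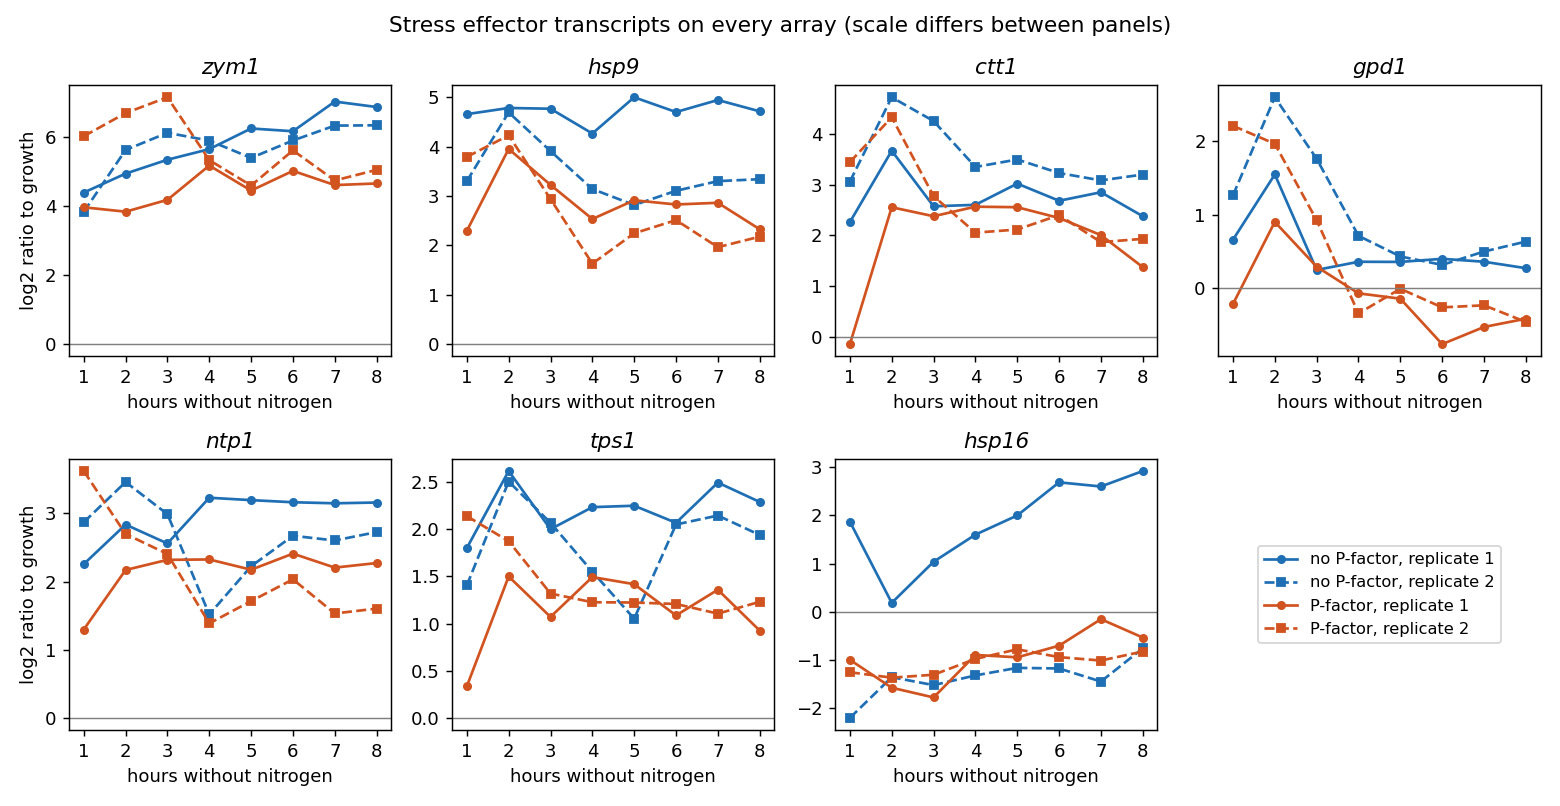
Centred log2 ratio of starved over growing cells (vertical axis, scale differs between panels) against hours without nitrogen (horizontal axis) for the 7 genes, 1 point per array, blue without and orange with P-factor, circles and solid lines for replicate 1, squares and dashed lines for replicate 2. zym1 stayed at or above 3.83 on every array, gpd1 fell back to growth after its early rise, and hsp16 was above 0 in replicate 1 without P-factor alone.

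The metallothionein gene zym1 stood highest of the 7 genes in each of the 4 array series. Without P-factor its replicate 1 read 4.39, 4.94, 5.34, 5.64, 6.24, 6.16, 7.02 and 6.86 at 1 to 8 h. Replicate 2 read 3.83, 5.62, 6.12, 5.89, 5.39, 5.89, 6.32 and 6.33 over the same hours. Both courses started at their lowest value at 1 h and reached their highest at 7 or 8 h. The average was 5.75 ± 0.35, a 53.8-fold higher level than in growth (adjusted p = 2.98e-12), and zym1 had rank 8 from the top among the 4811 genes. The mean of 6 to 8 h lay 1.40 ± 0.35 above the mean of 1 to 3 h (adjusted p = 0.00278), where 24% of all genes were called higher late. Centring bears on such counts: over all genes 1153 rose and 881 fell from early to late without P-factor, against 982 and 1063 on values as deposited, and 1623 and 953 with it, against 1125 and 1480. Replicate 1 gave a late rise of 1.79 and replicate 2 of 1.00. The rise was not called without replicate 1 (adjusted p = 0.279) or with each series averaged first (adjusted p = 0.078), an alternative chosen after the data were seen. The test for any difference among the 8 hours also called zym1 (range of hourly means 2.57, adjusted p = 0.0436, against 25.9% of all genes), but not on values as deposited, uncentred (adjusted p = 0.0556), with no block (adjusted p = 0.324), or without replicate 1 or 2 (adjusted p = 0.678 and 0.644).

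With P-factor the 2 replicates of zym1 ran in opposite directions. Replicate 1 read 3.96, 3.83, 4.18, 5.17, 4.44, 5.01, 4.60 and 4.65 and replicate 2 read 6.02, 6.69, 7.14, 5.33, 4.59, 5.61, 4.74 and 5.04. The replicates lay far apart for the first 3 h and close together from 4 h on, and the late minus early change was 0.77 in replicate 1 and -1.49 in replicate 2. The pooled change of -0.36 ± 0.35 was not called (adjusted p = 0.404). It was called as a fall without replicate 1 (-1.49, adjusted p = 0.00121) and as a rise without replicate 2 (0.77, adjusted p = 0.0489). The average with P-factor was 5.06 ± 0.35 (adjusted p = 1.95e-11), 33.4-fold above growth.

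Catalase, the product of ctt1, breaks down hydrogen peroxide. Its transcript was highest at 2 h in every series but replicate 1 with P-factor. The 2 h level was not tested against the other hours. In replicate 1 without P-factor ctt1 read 2.26, 3.67, 2.57, 2.60, 3.02, 2.68, 2.85 and 2.38, and in replicate 2 3.06, 4.72, 4.26, 3.35, 3.50, 3.23, 3.08 and 3.20. Both series peaked at 2 h and stayed well above growth to 8 h, with replicate 2 the higher at every hour. The average without P-factor was 3.15 ± 0.36 (8.89-fold, adjusted p = 6.33e-08), and the 2 h value was 4.20 ± 0.55 (adjusted p = 7.6e-07). With P-factor replicate 1 began at growth level, at -0.15, 2.55, 2.38, 2.56, 2.55, 2.34, 2.00 and 1.37, whereas replicate 2 began high, at 3.44, 4.33, 2.77, 2.05, 2.11, 2.40, 1.86 and 1.93. The 1 h arrays thus differed by 3.59, a wider gap than for 99.7% of genes at that hour, and the replicates lay closer together from 3 h on. The average with P-factor was 2.28 ± 0.36 (4.86-fold, adjusted p = 7.15e-06).

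The late minus early change of ctt1 was -0.52 ± 0.36 without and -0.57 ± 0.36 with P-factor, and neither was called (adjusted p = 0.261 and 0.188). With the 1 h array of replicate 1 left out, also a choice made after the data were seen, the change with P-factor was -1.14 and was called as a fall (adjusted p = 0.00066), as it was without the whole of replicate 1 (-1.45, adjusted p = 0.000596). With the spread taken from the 16 arrays without P-factor alone, the change of -0.52 in them was called (adjusted p = 0.0322).

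Glycerol-3-phosphate dehydrogenase, encoded by gpd1, makes the precursor of glycerol, the solute that fission yeast builds up under osmotic stress. The gpd1 transcript showed a short early rise. Arrays of replicate 1 without P-factor read 0.66, 1.54, 0.25, 0.36, 0.36, 0.40, 0.36 and 0.27, and those of replicate 2 1.26, 2.59, 1.76, 0.71, 0.43, 0.32, 0.50 and 0.63. Both peaked at 2 h and lay between 0.27 and 0.71 from 4 h on, close to growth. The level at 2 h was 2.07 ± 0.39, or 4.19-fold (adjusted p = 8.8e-05), and from 4 h no single hour was called (lowest estimate 0.36 at 6 h, highest 0.54 at 4 h). The average was 0.77 ± 0.26 (adjusted p = 0.0104), a call lost without replicate 2 (0.52, adjusted p = 0.0965). Over time gpd1 fell by 0.93 from early to late (adjusted p = 0.00527), where 18.3% of all genes were called lower late. This call too was lost without replicate 2 (-0.47, adjusted p = 0.433) and with each series averaged first (adjusted p = 0.0741).

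With P-factor gpd1 ended below its growing level on both replicates. Replicate 1 read -0.21, 0.90, 0.29, -0.07, -0.14, -0.76, -0.53 and -0.41, and replicate 2 read 2.20, 1.96, 0.92, -0.34, -0.01, -0.26, -0.23 and -0.46. Each value from 4 h on was below 0, although no single hour from 3 h on was called (adjusted p from 0.194 at 3 h to 0.887 at 5 h). The late mean lay -1.45 ± 0.26 from the early mean (adjusted p = 5.76e-05, against 19.8% of genes called lower late). The fall was -0.89 in replicate 1 and -2.01 in replicate 2, and its call held in every alternative run. Averaged over all hours gpd1 stood at 0.18 ± 0.26 and was not called (adjusted p = 0.555). Over the 8 hours, the test for any difference called gpd1 in both conditions (adjusted p = 0.0468 without and 0.004 with P-factor), where 25.9% and 42.1% of all genes were called. Both calls were lost with no block (adjusted p = 0.301 and 0.0522). The first was lost also without replicate 1 or 2 of its condition (adjusted p = 0.286 and 0.953), and the second without replicate 2 of its own (adjusted p = 0.173).

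Trehalose is a sugar that protects proteins and membranes, and tps1 encodes the enzyme that makes its phosphate. Without P-factor tps1 read 1.80, 2.62, 2.00, 2.24, 2.25, 2.07, 2.50 and 2.29 in replicate 1 and 1.41, 2.51, 2.07, 1.55, 1.05, 2.05, 2.15 and 1.94 in replicate 2. It was high from 1 h, peaked at 2 h in both series and later lay between 2.00 and 2.50 in replicate 1, while replicate 2 dipped to 1.55 and 1.05 at 4 and 5 h. The average was 2.03 ± 0.20 (4.08-fold, adjusted p = 7.27e-09). With P-factor replicate 1 read 0.33, 1.50, 1.07, 1.49, 1.42, 1.09, 1.36 and 0.93 and replicate 2 read 2.14, 1.87, 1.32, 1.23, 1.22, 1.21, 1.11 and 1.23. The 1 h array of replicate 1 was the lowest of its 16, and from 3 h on all values lay between 0.93 and 1.49. Here the average was 1.28 ± 0.20 (2.43-fold, adjusted p = 7.16e-06).

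Neutral trehalase, from ntp1, splits trehalose into glucose, and its gene was raised together with tps1. Without P-factor ntp1 read 2.26, 2.84, 2.56, 3.23, 3.20, 3.16, 3.15 and 3.16 in replicate 1 and 2.87, 3.46, 2.99, 1.52, 2.23, 2.67, 2.60 and 2.73 in replicate 2. Replicate 1 held near 3 from 4 h on, whereas replicate 2 dropped at 4 h and recovered in part. The average was 2.79 ± 0.32 (6.91-fold, adjusted p = 6.47e-08). Under P-factor replicate 1 read 1.30, 2.17, 2.32, 2.32, 2.17, 2.41, 2.21 and 2.27, and replicate 2 read 3.62, 2.70, 2.41, 1.39, 1.71, 2.03, 1.53 and 1.60. Replicate 2 was the higher up to 3 h and the lower from 4 h on, and the averages of the 2 series differed by only 0.022. The pooled average was 2.14 ± 0.32 (4.39-fold, adjusted p = 3.41e-06). Neither trehalose gene changed between early and late by the test in either condition (ntp1 0.08 ± 0.32 and -0.41 ± 0.32, tps1 0.10 ± 0.20 and -0.22 ± 0.20, adjusted p from 0.288 to 0.861). Without the 1 h array of replicate 1 both were called as late falls with P-factor, ntp1 at -0.84 and tps1 at -0.51 (adjusted p = 0.00964 and 0.00834), and likewise without the whole replicate (adjusted p = 0.02 and 0.0449).

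The small stress protein gene hsp9 was the next highest after zym1 in both conditions. Its values without P-factor were 4.66, 4.79, 4.77, 4.27, 5.00, 4.70, 4.95 and 4.72 in replicate 1 and 3.30, 4.70, 3.91, 3.14, 2.82, 3.11, 3.30 and 3.34 in replicate 2. The 2 replicates met at 2 h and were apart at all other hours, replicate 1 flat and high, replicate 2 falling to a plateau. The average was 4.09 ± 0.28 (17.1-fold, adjusted p = 1.38e-11). With P-factor hsp9 read 2.29, 3.96, 3.23, 2.54, 2.92, 2.83, 2.86 and 2.33 in replicate 1 and 3.79, 4.23, 2.94, 1.63, 2.25, 2.51, 1.97 and 2.18 in replicate 2. Both series peaked at 2 h and then fell, and the average was 2.78 ± 0.28 (6.86-fold, adjusted p = 7.89e-09). From early to late hsp9 with P-factor fell by 0.96 (adjusted p = 0.0057), a call lost without replicate 2 (-0.49, adjusted p = 0.297) and in the fit with no block (adjusted p = 0.0672). Variation of hsp9 over the 8 hours was called with P-factor (range 2.01, adjusted p = 0.0293), though not with no block or without replicate 2 (adjusted p = 0.396 and 0.39). Without P-factor the late minus early change was -0.33 ± 0.28 and was not called (adjusted p = 0.355).

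The order of the averages without P-factor was zym1, hsp9, ctt1, ntp1, tps1, gpd1 and hsp16, and it was the same with P-factor. Series by series zym1 was always highest and tps1 always had rank 5, while ctt1, ntp1 and hsp9 exchanged places. Replicate 2 without P-factor put ctt1 (3.55) above hsp9 (3.45). Replicate 1 of either condition put ntp1 (2.94 and 2.15) above ctt1 (2.75 and 1.95). The order of the neighbours ctt1 and ntp1 thus changed between series, and their difference was not tested. In replicate 1 without P-factor hsp16 stood above gpd1.

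**Figure D2:**
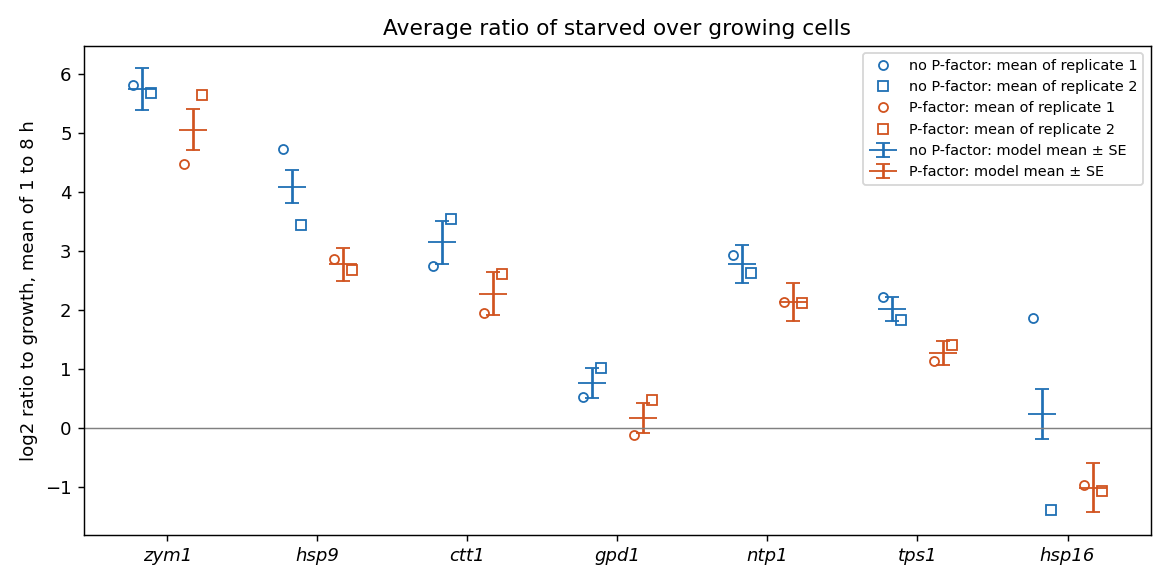
Log2 ratio of starved over growing cells averaged over 1 to 8 h (vertical axis) for each gene (horizontal axis), blue without and orange with P-factor. Horizontal marks with bars are the model's mean ± its standard error, open circles and squares the means of replicate 1 and 2. The 2 replicates of hsp16 without P-factor lie at 1.86 and -1.37, on opposite sides of 0.

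The small heat shock protein gene hsp16 was the exception among the 7, and its result without P-factor depended on the array series. Replicate 1 without P-factor read 1.87, 0.18, 1.04, 1.60, 2.00, 2.69, 2.60 and 2.92, every value above growth. The other replicate read -2.21, -1.36, -1.53, -1.33, -1.17, -1.18, -1.45 and -0.76, every value below growth. At 1 h replicate 2 minus replicate 1 was -4.08, a gap wider than for 99.9% of genes. The series averages of 1.86 and -1.37 gave a gap of rank 5 among the 4811 genes. The pooled average of 0.24 ± 0.42 was not called (adjusted p = 0.62) and stands for neither series. Without replicate 1 the average was -1.37 (adjusted p = 8.21e-07), and without replicate 2 it was 1.86 (adjusted p = 4.06e-08). These fits take their spread from the arrays with P-factor.

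With P-factor both replicates of hsp16 agreed in being low. Replicate 1 read -1.00, -1.58, -1.78, -0.90, -0.95, -0.71, -0.16 and -0.54, and replicate 2 read -1.26, -1.37, -1.31, -0.98, -0.78, -0.95, -1.02 and -0.83. All 16 values were below 0, and they overlapped those of replicate 2 without P-factor. The average of -1.01 ± 0.42 was called lower (adjusted p = 0.0369), a call lost when either P-factor replicate was left out and the spread came from the other condition (adjusted p = 0.259 and 0.314) and with each series averaged first (adjusted p = 0.198). The pooled spread of hsp16 includes the split between the replicates without P-factor. In all 4 series the late mean of hsp16 was above the early mean, by 1.71, 0.57, 0.99 and 0.38. The late rise was called without P-factor (1.14 ± 0.41, adjusted p = 0.0307) and not with it (0.69 ± 0.41, adjusted p = 0.169). The call was lost without replicate 1 of that condition or without either P-factor series (adjusted p = 0.0788, 0.0638 and 0.0638), and with the arrays of its own condition alone (adjusted p = 0.0638) or no block (adjusted p = 0.348). The rise with P-factor was called with the arrays of its condition alone (adjusted p = 0.00209) and with the series as a fixed block (adjusted p = 0.0232).

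Other heat shock proteins and co-chaperones stood apart in the same array series. Of 18 tested, 13 were lower and 1 higher than in growth on average without P-factor, with a median of -1.33, and 14 were lower with it, with a median of -1.61. Of all genes 35.3% and 32.8% were called lower. Their median was -0.55 in replicate 1 without P-factor, with 5 of 18 gene means above 0, and it lay between -1.53 and -1.66 in the other 3 series, with 1 or 2 above 0. The part of this shift in the hsp16 result was not tested. Named by size of the change, hsp10 was at -2.40 ± 0.27 and -3.12 ± 0.27 (adjusted p = 5.35e-08 and 8.07e-10) without and with P-factor. It encodes a mitochondrial co-chaperonin. From early to late, 10 of the 18 rose without P-factor and 15 with it, and none fell, against 24% and 33.7% of all genes called higher late. On values as deposited, without centring, 9 rose in either condition and none fell. The Hsp70 genes ssa2 and ssa1 led, at 2.28 ± 0.20 and 2.21 ± 0.24 without and 2.81 ± 0.20 and 2.42 ± 0.24 with P-factor (adjusted p from 1.56e-10 to 1.82e-07).

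**Figure D3:**
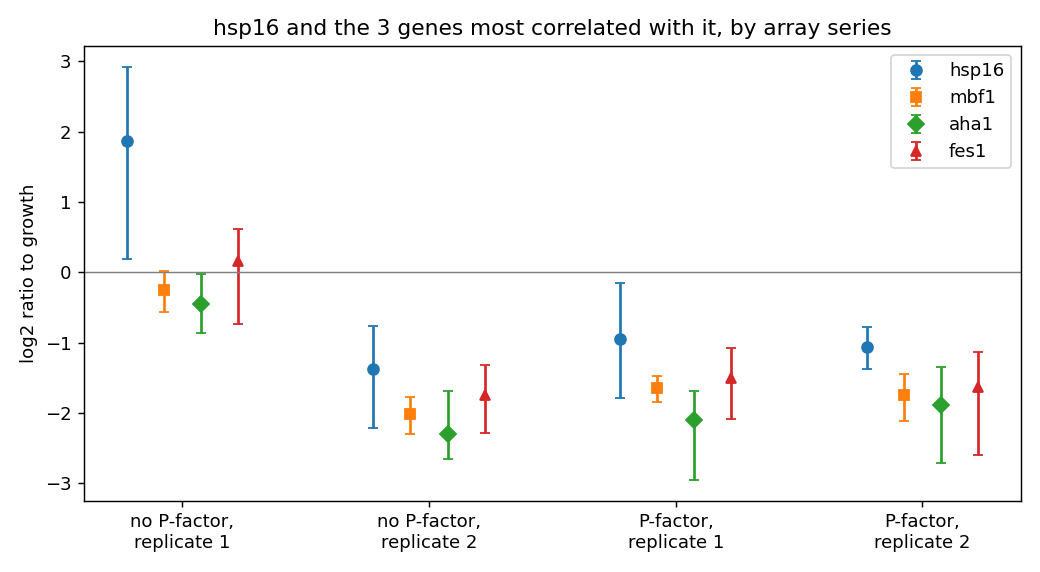
Log2 ratio of starved over growing cells (vertical axis) for hsp16 and the 3 genes most correlated with it, in each of the 4 array series (horizontal axis). Symbols are the mean of the 8 hourly arrays and bars run from the lowest to the highest of them. In replicate 1 without P-factor hsp16 averaged 1.86, and in the other 3 series between -1.37 and -0.95. The 3 genes were picked on these same arrays, so their likeness to hsp16 here follows from the choice.

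Upstream of the effectors, the transcripts of the stress pathway's regulators had a smaller median rise. Of 24 genes listed for the Sty1 pathway, 19 were higher and 1 lower without P-factor (median 0.73) and 17 were higher and 1 lower with it (median 0.59), where 33.7% and 33.9% of all genes were called higher. The transcription factor gene atf1 was higher at 2.20 ± 0.16 without and 1.60 ± 0.16 with P-factor (adjusted p = 4.49e-11 and 8e-09). Its partner pcr1 stood at -0.08 ± 0.17 and -0.03 ± 0.17, and the kinase genes sty1 and wis1 at 0.14 ± 0.11 and 0.21 ± 0.11 without P-factor, none of them called (adjusted p from 0.0871 to 0.905). The oxidative stress factor gene pap1 and the heat shock factor gene hsf1 were higher in both conditions, pap1 at 1.47 ± 0.11 and 1.15 ± 0.11 and hsf1 at 1.43 ± 0.12 and 1.26 ± 0.13. The kinase gene srk1, whose product is a substrate of Sty1, was higher at 2.08 ± 0.40 and 2.45 ± 0.40. The 1 gene called lower was ptc2 in both conditions, at -1.53 ± 0.18 and -1.23 ± 0.18.

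Among regulators of cAMP signalling and starvation, 11 of 15 tested genes were higher and 1 lower without P-factor (median 0.76), and 12 were higher and 1 lower with it (median 0.82), against the same 33.7% and 33.9% of all genes called higher. The median of the list was 0.41 in replicate 1 without P-factor and between 0.81 and 0.93 in the other 3 series. Largest in the list was the change of rsv2, at 3.01 ± 0.25 without and 2.11 ± 0.25 with P-factor. The protein kinase A gene pka1 was at 2.17 ± 0.22 and 1.87 ± 0.22, and rst2, for a transcription factor that protein kinase A holds in check, at 1.43 ± 0.13 and 1.41 ± 0.13 (adjusted p from 1.53e-09 to 1.35e-07). Of 13 tested genes listed for trehalose, glycerol and storage carbohydrate, the members aside, 10 were higher in either condition. Of the 13, 1 was lower without and 3 with P-factor. Of all genes 33.7% and 33.9% were called higher and 35.3% and 32.8% lower. The list also holds genes of general sugar metabolism, hxk1, hxk2, pgi1, tdh1, gpd3 and fbp1, all but hxk2 called higher in both conditions. The dihydroxyacetone kinase gene dak2 led the list at 2.67 ± 0.39 and 2.63 ± 0.39. Called lower in both conditions was gpd2, at -0.95 ± 0.15 and -0.53 ± 0.15. With P-factor gut2 (-0.52) and hxk2 (-0.42) were called lower too.

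Antioxidant and metal defence genes other than zym1 and ctt1 were mixed. Of 23 tested, 12 were higher and 4 lower without P-factor (median 0.86), and 11 were higher and 4 lower with it (median 0.33), against 33.7% and 33.9% of all genes called higher and 35.3% and 32.8% lower. The series differed: the list's median was 0.31 (22 genes) and 0.62 in replicates 1 and 2 without P-factor, and 0.03 and 0.76 with it. The glutathione S-transferase genes gst2 and gst3 stood at 2.82 ± 0.48 and 2.68 ± 0.26 without P-factor and at 2.97 ± 0.48 and 2.20 ± 0.26 with it. Of this list 13 of 23 genes fell from early to late without and 14 of 23 with P-factor, against 18.3% and 19.8% of all genes, while 2 and 1 rose. By contrast zym1 rose in the same contrast without P-factor, and ctt1 was not called in either.

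The P-factor condition was then set against the condition without it. The comparison asks what pheromone and strain changed together, each against its own growing cells. All 7 effector genes had lower averages with P-factor, from -1.31 for hsp9 to -0.60 for gpd1, with a median of -0.75 against 0.00 for all genes. No member passed the test in limma, where 3.33% of all genes were called (lowest adjusted p = 0.0698, for hsp9), and 3 of the 7, hsp9, tps1 and hsp16, had an unadjusted p below 0.05, as had 16.3% of all genes. In the lower 3.91% of all genes lay every one of the 7 estimates. The 7 values share the same arrays and are not independent of one another. Genes of the related lists also lay in the range of the 7, such as hsp104 (-0.86, not called). Of 23 antioxidant and metal defence genes 2 were called lower, sod1 (-0.94) and sod2 (-0.76), and 0 higher. List medians were -0.38 for heat shock, -0.16 for antioxidant, -0.04 for storage carbohydrate, 0.03 for Sty1 and 0.09 for cAMP genes. Without replicate 2 of the condition lacking P-factor, hsp9, tps1 and hsp16 were called lower (-1.95, -0.94 and -2.87, adjusted p from 1.16e-07 to 0.0159), while without its replicate 1 the hsp16 difference was 0.37. With no block, which treats the 8 arrays of a series as separate, hsp9, tps1, ctt1, ntp1 and gpd1 were called lower (adjusted p from 0.000543 to 0.0258).

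**Figure D4:**
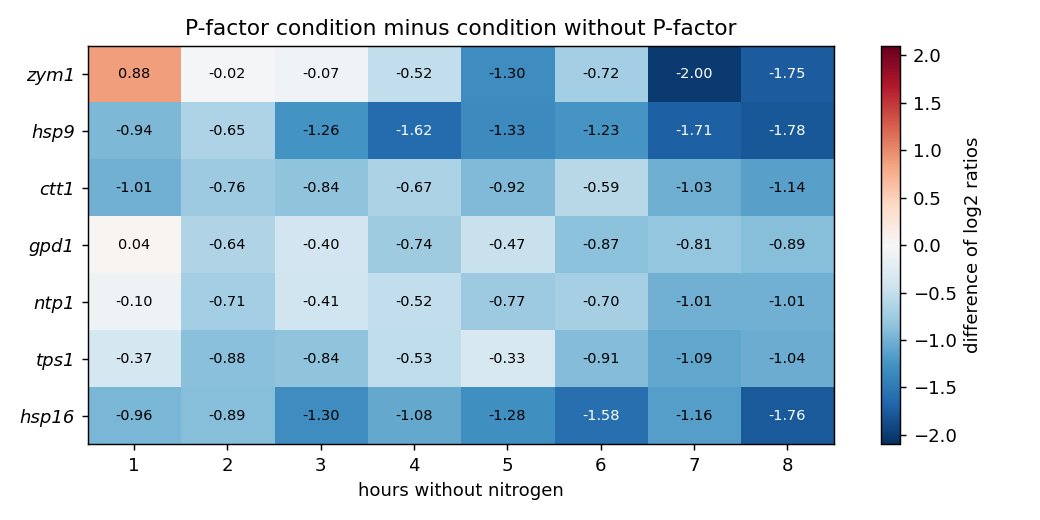
Difference of log2 ratios, P-factor condition minus condition without it (colour and printed value), for each gene (rows) and hour without nitrogen (columns). Of the 56 differences 54 are below 0, the exceptions being zym1 and gpd1 at 1 h (0.88 and 0.04), and no single one passed the test. The differences share arrays and are not independent.

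Hour by hour, 54 of the 56 differences were below 0. They share arrays and array series and are not independent, and the share of all genes below 0 was not counted. For hsp16, replicate 1 without P-factor was above growth at every hour and all other series were below it. By limma 0 of the 56 were called, and 10 had an unadjusted p below 0.05, 6 of them at 7 and 8 h. Over all genes 5.61%, 5.7%, 6.03%, 6.67%, 10.6%, 16.9%, 20.3% and 21.8% had an unadjusted p below 0.05 at 1 to 8 h. After adjustment, 0.166%, 0.0624%, 0.0208%, 0.104%, 0.998%, 4.36%, 7.19% and 8.9% of all genes were called at those hours. Without replicate 2 of the condition lacking P-factor 12 of the 56 were called, 8 of hsp16 and 4 of hsp9, and between 0.942% and 12.6% of all genes at an hour. From 4 h to 8 h, both arrays with P-factor lay below both arrays without it at all 5 hours for zym1, ctt1 and gpd1. The same held at 2, 3, 4, 6, 7 and 8 h for hsp9 and tps1, at 2, 3, 5, 6, 7 and 8 h for ntp1, and at 2 h alone for hsp16. Of all genes, 15.6%, 16.4%, 21.8%, 16.7%, 18.9%, 20.6%, 23.7% and 27.2% showed such a separation at 1 to 8 h. These are shares at single hours. The share of all genes separated at several hours together was not counted, and the hours share array series. At 8 h, hsp9 lay between 2.18 and 2.33 with P-factor and between 3.34 and 4.72 without, a difference of -1.78 ± 0.60 (adjusted p = 0.0679). The corresponding difference of zym1 at 7 h was -2.00 ± 0.76 (adjusted p = 0.119).

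In the late hours, 6 to 8 h, 2 of the 7 genes were called lower with P-factor, where 4.57% of all genes were (9.64% were higher, 14.2% either way). The hsp9 difference was -1.57 ± 0.45, or 2.98-fold lower (adjusted p = 0.0198), with late means of 2.67 and 2.22 with P-factor against 4.79 and 3.25 without. For tps1 it was -1.01 ± 0.33, or 2.02-fold lower (adjusted p = 0.0405), with late means of 1.12 and 1.18 against 2.28 and 2.05. In both genes both late means with P-factor lay below both of the others, as in 27.2% of all genes. Both calls were lost when replicate 1 without P-factor or either P-factor series was left out. The hsp9 difference then lay between -0.80 and -1.80 (adjusted p from 0.0704 to 0.183), and that of tps1 between -0.89 and -1.04 (adjusted p from 0.0889 to 0.114). With each series averaged first hsp9 was not called (adjusted p = 0.0717) and tps1 was (adjusted p = 0.0399).

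The other 5 were also lower late with P-factor and were not called. The difference was -1.49 ± 0.57 for zym1 (adjusted p = 0.0869), -1.50 ± 0.67 for hsp16, -0.92 ± 0.58 for ctt1, -0.90 ± 0.52 for ntp1 and -0.85 ± 0.41 for gpd1. Late means of zym1 were 4.76 and 5.13 with P-factor against 6.68 and 6.18 without, and its difference was called without replicate 2 of the P-factor condition (-1.68, adjusted p = 0.0435) with no block (adjusted p = 0.0188) and with each series averaged first (adjusted p = 0.0153). With no block gpd1 was called as well (adjusted p = 0.05). The hsp16 difference was 0.43 without replicate 1 of the condition lacking P-factor and -3.44 without its replicate 2 (called, adjusted p = 3.76e-07). In the early hours, 1 to 3 h, no effector gene was called by limma, and 0.187% of all genes were called. An unadjusted p below 0.05 was found for 2 (hsp9 and tps1) and for 8.27% of all genes. Early differences ran from -1.05 for hsp16 to 0.27 for zym1, and hsp16 was called without replicate 2 lacking P-factor (-2.41). Among related genes the late hours called the superoxide dismutase genes sod1 and sod2 lower with P-factor (-1.10 ± 0.21 and -0.85 ± 0.23), 2 of 23 antioxidant genes. Besides the members, no gene listed for trehalose, glycerol and storage carbohydrate was called late. Of the heat shock list 1 of 18, bip1, for the Hsp70 of the endoplasmic reticulum, was higher (0.75 ± 0.24). That call was not made on values as deposited. Of the 24 genes of the Sty1 pathway 2 were higher, ptc2 (0.97 ± 0.30) and cmk2 (0.71 ± 0.20), and 2 lower, win1 (-1.00 ± 0.29) and pap1 (-0.57 ± 0.18). No gene of the cAMP and starvation list was called.

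The difference in change over time between the conditions was called for zym1 and for none of the other 6. Its late minus early change was -1.76 ± 0.50 lower with P-factor (adjusted p = 0.012), where 10.2% of all genes were called lower. The 4 series gave 1.79 and 1.00 without and 0.77 and -1.49 with P-factor, and both changes with P-factor were below both of the others, as in 22.9% of all genes. The call was lost without replicate 2 with P-factor, where the difference was -0.63. It was also lost without either series lacking P-factor (-1.36 and -2.16, adjusted p = 0.257 and 0.0741), with no block (adjusted p = 0.0722) and with each series averaged first (adjusted p = 0.168). For the other 6 genes the difference ran from -0.63 to -0.05. In gpd1 (-0.52) it was called without the 1 h array of P-factor replicate 1 (-0.88, adjusted p = 0.022) or without that replicate (-1.08, adjusted p = 0.0374). In tps1 (-0.32) it was called without that array alone (-0.61, adjusted p = 0.036), and in hsp16 (-0.45) without replicate 2 of the condition lacking P-factor (-1.02, adjusted p = 0.0208).

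On the 1 h arrays with P-factor, the replicates of 6 of the 7 effector genes lay further apart than those of most genes. Replicate 2 was above replicate 1 by 2.06 for zym1, 1.50 for hsp9, 3.59 for ctt1, 2.42 for gpd1, 2.33 for ntp1 and 1.81 for tps1, gaps wider than those of 96.5% to 99.7% of all genes at that hour. For hsp16 the replicates differed by -0.26, a gap wider than that of 36.1% of genes. The median gap over all genes, without its sign, was 0.373. For 3 h minus 1 h no effector gene was called in either condition by limma, where 5.65% and 6.24% of all genes were. An unadjusted p below 0.05 was found for 1 member (zym1) without P-factor and 0 with it, and for 19.4% and 20.7% of all genes. With the spread taken from the arrays without P-factor alone, the zym1 difference of 1.62 ± 0.61 between 3 and 1 h was called (adjusted p = 0.0173). Without the 1 h array of replicate 1, gpd1 with P-factor fell by 1.46 from 1 to 3 h (adjusted p = 0.038), and without replicate 2 ctt1 with P-factor rose by 2.53 (adjusted p = 0.0152).

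Over the 16 group means the effector genes followed one another to different degrees. The pair most alike was hsp9 and ntp1 (Pearson's r = 0.92), followed by hsp9 and tps1 (0.87), ntp1 and tps1 (0.86) and hsp9 and ctt1 (0.86). Least alike were gpd1 and hsp16 (-0.05) and zym1 and gpd1 (0.09). These points share arrays, growing reference and centring, so the correlations are descriptions. Over the 32 single arrays the correlation of hsp9 and ctt1 was 0.51 and that of ntp1 and tps1 0.80.

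Over the 32 arrays, the genes whose pattern was most like each effector gene were found by Pearson's correlation, as a description. For zym1 they were SPAC23C11.06C (0.79), hsp3101 (0.72) and aif1 (0.72). Closest to hsp9 were SPAC26F1.07 (0.97), tsp0 (0.93) and SPBC11C11.06C (0.92). The nearest patterns to ctt1 were those of SPBC16A3.02C (0.89), pil1 (0.87) and SPCC569.05C (0.86), and to gpd1 those of SPAC19G12.09 (0.91), SPBC25B2.03 (0.91) and scs22 (0.88). Both trehalose genes had SPBC216.03 among their nearest 3 (0.83 for ntp1 and 0.87 for tps1), beside ish1 (0.88) and ddr48 (0.82) for ntp1 and rtc3 (0.87) and opi10 (0.85, over 31 arrays) for tps1. Nearest to hsp16 were mbf1 (0.95), aha1 (0.93) and fes1 (0.93). Without the arrays of replicate 1 lacking P-factor these 3 correlations were 0.67, 0.74 and 0.68, whereas those of the other named pairs lay between 0.71 and 0.96. In that series mbf1, aha1 and fes1 averaged -0.26, -0.45 and 0.16, and in the other 3 they averaged between -2.29 and -1.50. Since these genes were picked for likeness to hsp16 on the same arrays, their split is not a separate observation.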

How the data were processed

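Values were taken as log2 ratios per probe, as deposited by the authors in their value table. The log base and the authors' normalization are not given in the sources used here, and a natural logarithm is possible. Of 5188 probes, 4868 had 1 gene in the platform annotation, 22 several and 298 none listed here, and 0.456% of values were missing. Each array was centred on its median (-0.154 to 0.091), probes of 1 gene were averaged, and 4811 genes measured on at least 24 of 32 arrays were tested with limma 3.58.1 in R 4.3.3. The model had 16 group means and the array series as a random block (correlation 0.354), with Benjamini-Hochberg adjustment over all genes and two-sided tests. It was also run on simulated data in which every gene had that same correlation. The simulation therefore does not cover genes such as hsp16, whose series lay far apart. Early is 1 to 3 h and late 6 to 8 h, each a mean of hourly means. The 7 genes and the gene lists were chosen with earlier results of these data known. Most listed genes are named by size of change among those called or as defining regulators, and not every large change is named. Likeness is the 3 highest correlations over at least 28 arrays. Promoter and protein sequences were not analysed here.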

Additional observations from a re-analysis of the deposited data

Results flagged for a closer look

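Differences between the conditions passed the test for 3 results, and each depends on which array series enter. The late mean of hsp9 was -1.57 ± 0.45 on the log2 scale with P-factor relative to without (limma, adjusted p = 0.0198). That of tps1 was -1.01 ± 0.33 (adjusted p = 0.0405). In either gene both late means lay below both of the other condition, as in 27.2% of all genes. The late minus early change of zym1 was -1.76 ± 0.50 with P-factor relative to without (adjusted p = 0.012), and replicate 2 with P-factor was the 1 series of 4 in which zym1 fell. Strain and P-factor cannot be told apart in any of the 3.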

How the results depend on the processing

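For 70 results of the 7 genes in the summary comparisons, 850 values under an alternative kept their side of the threshold. Of the rest 38 newly passed it, 27 no longer did, and 2 changed sign where a call was made. Uncalled values that changed sign count among the 850, such as 1 of ctt1 late minus early with P-factor. No alternative on the choice of genes or probes changed a call. Leaving out a series leaves each hour of its condition 1 array, whose spread is assumed to be like that of the other condition. Hour values of a condition then rest on 1 series, and at 2 arrays an hour only wide gaps pass the test. No paired analysis was possible because the labels do not number the replicates, and the numbers used here follow the array numbers. The causes of the changes below were not tested.

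Leaving out 1 series, or the 1 h array of P-factor replicate 1, gave these ranges. The average without P-factor lay between 0.52 and 1.02 for gpd1 and between -1.37 and 1.86 for hsp16, and the average with P-factor between -1.06 and -0.95 for hsp16. For hsp16 without P-factor the ranges were -2.21 to 1.87 at 1 h, -1.53 to 1.04 at 3 h, -1.33 to 1.60 at 4 h, -1.17 to 2.00 at 5 h, -1.18 to 2.69 at 6 h, -1.45 to 2.60 at 7 h and -0.76 to 2.92 at 8 h. At 1 h with P-factor ctt1 ranged from -0.15 to 3.44 and gpd1 from -0.21 to 2.20. For 3 h minus 1 h, zym1 without P-factor ranged from 0.95 to 2.29, and with P-factor ctt1 ranged from -0.77 to 2.53 and gpd1 from -1.46 to 0.51. Late minus early without P-factor ranged from 1.00 to 1.79 for zym1, -0.84 to -0.20 for ctt1, -1.39 to -0.47 for gpd1 and 0.57 to 1.71 for hsp16. With P-factor it ranged from -1.49 to 0.77 for zym1, -1.44 to -0.49 for hsp9, -1.45 to 0.31 for ctt1, -1.19 to 0.37 for ntp1, -0.60 to 0.16 for tps1 and 0.38 to 0.99 for hsp16. P-factor minus none ranged on average from -1.95 to -0.68 for hsp9, -0.94 to -0.56 for tps1 and -2.87 to 0.37 for hsp16, and early from -2.41 to 0.31 for hsp16. Late it ranged from -1.74 to -1.24 for zym1, -2.34 to -0.80 for hsp9, -1.13 to -0.89 for tps1 and -3.44 to 0.43 for hsp16. The difference of late minus early ranged from -2.88 to -0.63 for zym1, -1.08 to 0.038 for gpd1, -0.69 to 0.057 for tps1 and -1.02 to 0.12 for hsp16.

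With no block, P-factor minus none was called on average for hsp9 (-1.31), ctt1 (-0.87), gpd1 (-0.60), ntp1 (-0.65) and tps1 (-0.75), and late for zym1 (-1.49) and gpd1 (-0.85). The calls of hsp16 late minus early without P-factor (1.14), hsp9 with P-factor (-0.96) and the zym1 difference of late minus early (-1.76) were lost. With the series as a fixed block, hsp16 late minus early with P-factor (0.69) was called. With the arrays of 1 condition alone, calls came for zym1 at 3 h minus 1 h (1.62), ctt1 late minus early without P-factor (-0.52) and hsp16 with P-factor (0.69), and that of hsp16 without P-factor (1.14) was lost. With each series averaged first, the late difference of zym1 (-1.49) was called, and the calls of zym1 (1.40) and gpd1 (-0.93) late minus early without P-factor, hsp16 on average with P-factor (-1.01), hsp9 late (-1.57) and the zym1 difference of late minus early (-1.76) were lost.

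Counts of all genes called moved more. P-factor minus none gave 160 genes on average, 1457 with no block, 21 with each series averaged first and 20 to 1194 with a series left out. Early it gave 9, against 69, 2 and 3 to 286, and 5 after scaling arrays to 1 spread. Late it gave 684, against 1347, 298 and 271 to 1295. The difference of late minus early gave 1241, against 683, 179 and 562 to 1250. For 3 h minus 1 h the counts were 272 without P-factor, against 76, 98 and 49 to 306, and 300 with it, against 69, 104 and 66 to 263, and 177 with its own arrays alone. Late minus early gave 2034 without P-factor, against 1008 with each series averaged first and 1024 to 2092 with a series left out, and 2576 with it, against 1529. Variation over hours gave 1246 without P-factor, against 548 with no block and 261 to 1357, and 2027 with it, against 1018 and 933 to 1934. Calls among the 56 hourly differences ranged from 0 to 12.

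On values as deposited, without centring, late minus early gave 1125 genes higher and 1480 lower with P-factor, against 1623 and 953 after centring. Without P-factor it gave 982 and 1063, against 1153 and 881, and its difference between conditions 549 and 694, against 752 and 489. The median of all genes for late minus early with P-factor was -0.08 as deposited and 0.11 after centring, and no summary call of the 7 genes changed.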
